A study of Mus musculus with 9 samples.

Results

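The 39 genes described here encode proteins of meiotic prophase and recombination. They were chosen by name: a gene row belongs to the set if its symbol equals 1 of 39 listed symbols, whatever its level. All 39 symbols were present among the 55487 gene rows of each library. Of the 39, 30 passed the filter on low counts and entered the test, and 9 had too few counts in these ovaries to be tested.

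In meiosis a germ cell pairs its homologous chromosomes, breaks their DNA at chosen sites and repairs the breaks from the partner chromosome, which yields crossovers. Cohesin rings hold sister chromatids along an axis, the synaptonemal complex zips the paired axes together, and telomeres anchored in the nuclear envelope move the chromosomes into register. In female mice these steps take place in the fetal ovary, and oocytes then rest in dictyate arrest from around birth until ovulation, so that ovaries after birth hold arrested oocytes among granulosa, theca and stromal cells. Some of the proteins have uses outside meiosis, among them TRIP13 in the mitotic spindle checkpoint, MLH3 in mismatch repair and SUN1 in the nuclear envelope of somatic cells.

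The libraries are mRNA-seq of whole ovaries from C57BL/6 mice, 3 at postnatal day 65, 3 at day 50 and 3 at day 8. Every library, at all ages, carries the same genotype in its label, an oocyte-specific PIK3CA* knock-in, so that age is the only factor and no ovary without the knock-in is part of the comparisons. The series text calls the tissue tumor samples, whereas the sample labels give ovary as the tissue. The driver of the knock-in and the number of animals per library are not stated in the labels. Nothing there says that replicates are separate animals, so the p-values measure only the spread between these libraries.

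The libraries held 14116908 to 18868831 expected counts each. The day 65 libraries and replicate 1 of day 8 stood apart in composition: ribosomal protein genes took 9.06% to 11.9% of the counts at day 65 and 10.7% in replicate 1 of day 8, against 2.82% to 5.38% in the other 5 libraries. Markers of oocytes, 16 genes such as Gdf9 and Ddx4, summed to 5696 to 6534 normalized read counts (CPM, relative to library size scaled with TMM factors) at day 8, 152 to 239 CPM at day 50 and 56.7 to 150 CPM at day 65. Oocyte RNA was thus measurable at each age, although 2 and 3 of the 16 markers were at 0 in replicates 1 and 2 of day 65. None of 6 spermatid genes exceeded 0.230 CPM in sum in any library.

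Across the 39 genes, 38 had counts in all 3 libraries at day 8, 20 at day 50 and 15 at day 65. The gene without counts at day 8 was Stra8, the gatekeeper of meiotic entry. Expressed per length, the 39 genes summed to 467, 637 and 709 TPM, RSEM's length-corrected measure, in replicates 1 to 3 of day 8. The sums were 178, 194 and 189 TPM in the day 50 libraries and 144, 161 and 198 TPM in the day 65 libraries. The later libraries thus lay below all day 8 libraries, and the 2 later ages overlapped.

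**Figure D1:**
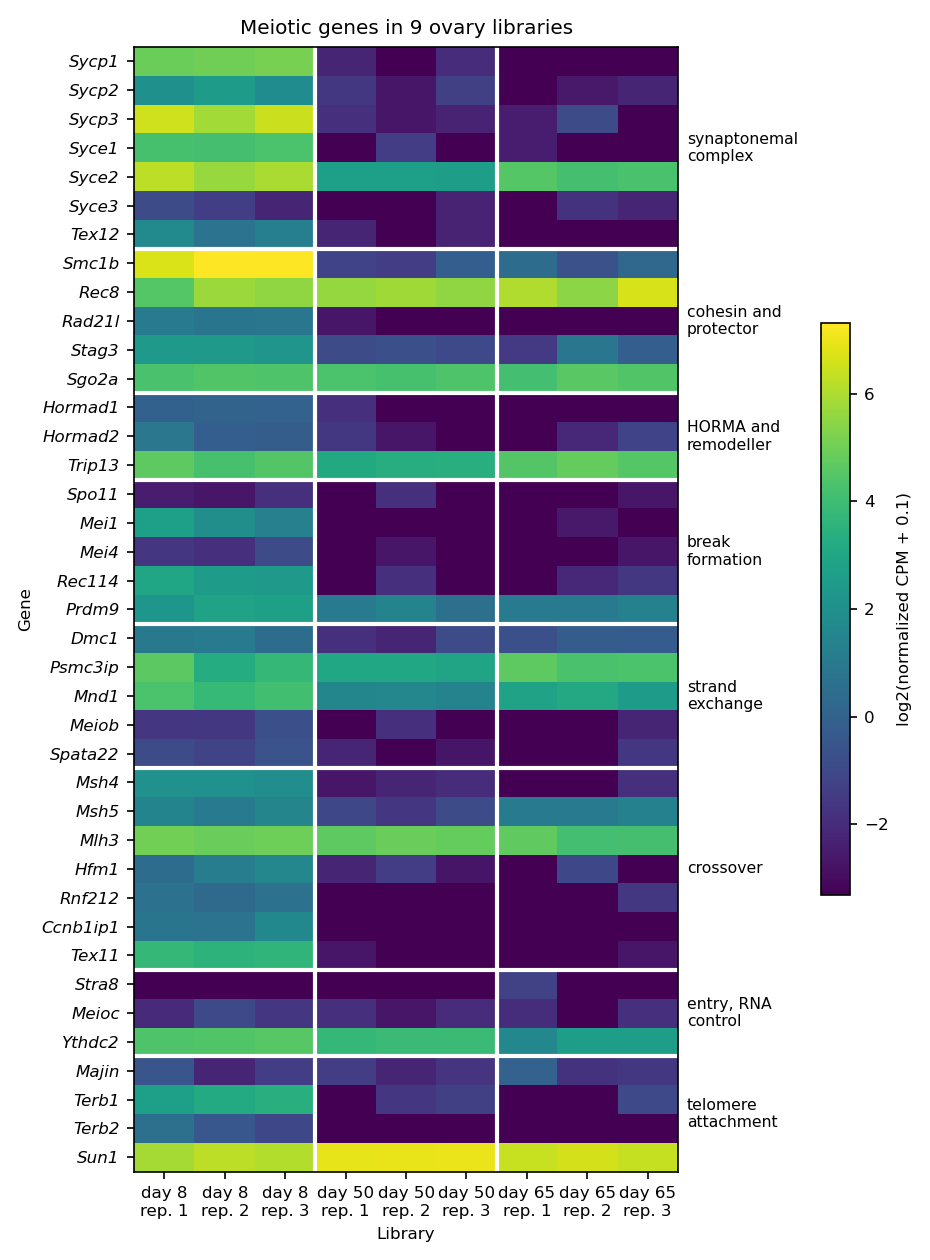
Heat map of the 39 genes (rows, grouped by role) in the 9 libraries (columns, day 8 to day 65), coloured by log2(normalized CPM + 0.1). All but 1 of the genes had counts in every day 8 library, and at the later ages most rows are dark while Rec8, Sgo2a, Mlh3 and Sun1 stay bright. At day 65, Syce2, Trip13 and Psmc3ip are about as bright as Sgo2a and Mlh3.

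Which genes made up the summed level differed with age. At day 8, Syce2 held 24.8% of the summed TPM, Sycp3 19.3% and Smc1b 9.69%. At day 50, Sun1 held 34.8%, Rec8 23.9% and Syce2 8.32%. In day 65 ovaries the top 5 genes held 82.2% of the sum, against 65.2% at day 8. Of the 39 genes, 12 averaged 10 TPM or more at day 8, 6 did so at day 50 and 5 at day 65.

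**Figure D2:**
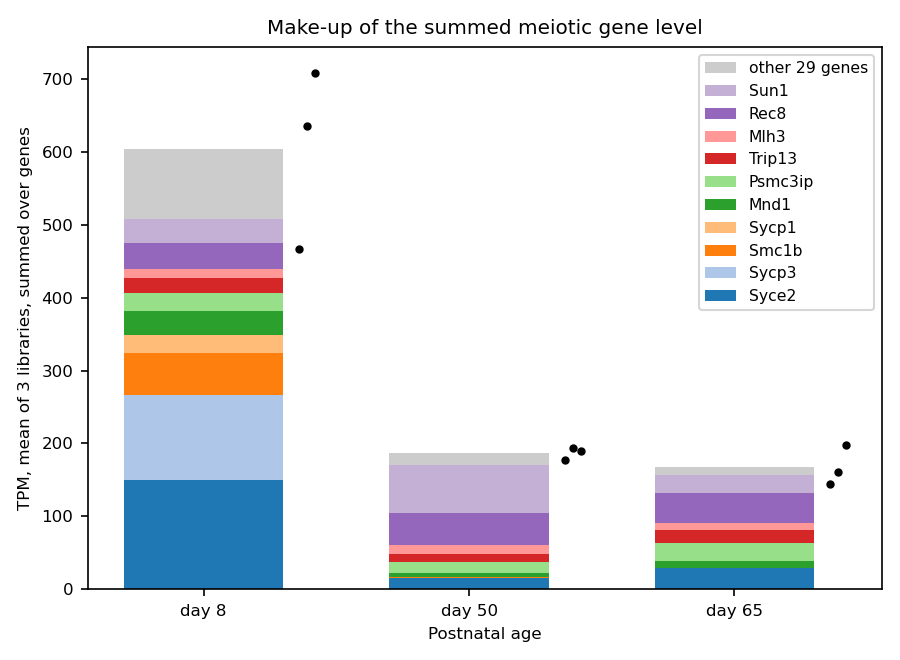
Stacked bars of the mean TPM (n = 3 libraries per age) of 10 named genes and the other 29 genes at day 8, day 50 and day 65, with black points for the sum in each library. The day 8 bar is mostly synaptonemal complex and cohesin genes, the later bars mostly Sun1, Rec8, Psmc3ip and Syce2.

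The first comparison asked how the genes changed between the infant and the adult ovary. At day 50, 25 of the 39 genes were lower and 1, Sun1, was higher than at day 8, in edgeR's quasi-likelihood test at an adjusted p under 0.05. Of all 17747 genes tested, 40.8% were called in this comparison, 21.4% as lower and 19.5% as higher. Another 4 genes, Rec8, Sgo2a, Mlh3 and Ythdc2, were tested and not called. The median log2 fold change of the 30 tested genes was -3.83, beside -0.04 for all genes tested. The filter on low counts ran over all 9 libraries. A gene that passed it through its day 8 counts alone, such as Mei1 or Ccnb1ip1, could hardly come out other than lower. The median and the counts of genes here therefore describe the set and do not test it. The day 50 libraries all lay below the day 8 libraries for 32 of the 39 genes. Among tested genes this held for 27 of the 30, and for 29% of all genes tested. Oocyte markers fell over the same interval: 14 of the 16 were lower at day 50, with a median log2 fold change of -5.33. Without replicate 1 of day 8, 24 of the 39 genes were lower and 1 higher. At day 50 against day 8, 9 of 10 granulosa cell markers and 6 of 6 theca and steroidogenesis markers were higher, and 4 of 5 stromal markers were lower. In whole-ovary RNA, fewer oocytes, less RNA per oocyte and more RNA from other cells cannot be told apart.

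Of the 7 synaptonemal complex genes, 6 were lower at day 50 than at day 8 and 1 was not tested. SYCP1 forms the transverse filaments of the complex. Sycp1 had 30.1, 32.1 and 34.5 CPM at day 8, then 2, 0 and 3 counts at day 50 and no count in any day 65 library. The groups were far apart, with a log2 fold change of -8.36 (SE 0.44, edgeR adjusted p = 4.54e-06) at day 50 against day 8. With 5 counts in all at day 50, this SE is too small to cover the counting error. With 0 counts at day 65, its level there was at least 480.5-fold lower than at day 8, taking 3 counts over the 3 libraries as the floor (0.0671 CPM).

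SYCP3 and SYCP2 build the lateral elements of the complex. Sycp3 had 91.7, 57.6 and 87.4 CPM at day 8, 3, 1 and 2 counts at day 50 and 1, 7 and 0 counts at day 65. Its log2 fold change was -9.40 (SE 0.52, edgeR adjusted p = 2.02e-06) at day 50 against day 8 and -8.72 (SE 0.51, adjusted p = 1.71e-06) at day 65 against day 8. With so few counts at the later ages, these SE too can understate the counting error. Without replicate 2 of day 65, which holds 7 of the 8 counts, the second value was -10.88, and it was -8.04 without replicate 3. About 52.2% of the exon bases of Sycp3 overlap Chpt1 on the opposite strand, and the strand setting of the counting is not given, yet the summed count was 8 at day 65 and 6 at day 50. Sycp2 had 3.93, 5.53 and 3.49 CPM at day 8, and 4, 1 and 6 counts at day 50 and 0, 1 and 2 at day 65.

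The central element of the complex is made of SYCE1, SYCE2, SYCE3 and TEX12. Syce1 had 18.5, 18.1 and 19.4 CPM at day 8, 0, 5 and 0 counts at day 50 and 1, 0 and 0 counts at day 65. The 5 counts of 1 library decide its value at day 50: the log2 fold change against day 8 was -7.56 (SE 0.69, edgeR adjusted p = 2.21e-05) with all libraries, -11.22 without replicate 2 of day 50 and -6.92 without replicate 3 of day 50. At day 65 there was a single count, and the level at day 8 was 836 times that at day 65, with an exact binomial 95% interval of 149.6 to 33045. Tex12 had 45, 27 and 41 counts at day 8, 2, 0 and 2 at day 50 and none at day 65, and was called lower at both later ages.

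Syce2 was the one of these genes with over 100 counts at the later ages. Its level was 76.2, 50.5 and 61.6 CPM at day 8, 6.23, 6.35 and 6.06 CPM at day 50 and 22.7, 17.7 and 19.1 CPM at day 65, with no overlap between any pair of ages. It fell at day 50 against day 8 (log2 fold change -3.33, SE 0.18, edgeR adjusted p = 1.99e-06) and rose at day 65 against day 50 (1.67, SE 0.18, adjusted p = 7.23e-05). Its day 65 level was still below day 8 (log2 fold change -1.66, SE 0.17, edgeR adjusted p = 2.41e-05). The last central element gene, Syce3, was not tested, with 13 counts in all at day 8, 2 at day 50 and 5 at day 65.

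Of the 4 cohesin genes and the protector gene Sgo2a, 3 were lower at both later ages than at day 8 and 2 were called in no comparison. SMC1B, the meiotic form of a core cohesin subunit, was the most abundant of the 39 by CPM at day 8: Smc1b had 104, 158 and 154 CPM at day 8, 0.343, 0.279 and 0.815 CPM at day 50 and 1.24, 0.523 and 1.09 CPM at day 65. The log2 fold change was -8.13 (SE 0.37, edgeR adjusted p = 1.18e-06) at day 50 against day 8 and -7.19 (SE 0.35, adjusted p = 8.83e-07) at day 65 against day 8. The kleisin Rad21l had 27, 28 and 30 counts at day 8, 1, 0 and 0 at day 50 and none at day 65. Stag3, the meiotic STAG subunit, had 5.19, 5.18 and 4.5 CPM at day 8, 0.458, 0.502 and 0.408 CPM at day 50 and 0.249, 1.70 and 0.805 CPM at day 65. Smc1b, Rad21l and Stag3 were the genes called lower.

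REC8 is the meiotic kleisin whose cleavage releases the chromosomes. Rec8 had 22.8, 52.6 and 46.4 CPM at day 8, 49.7, 55.2 and 46.3 CPM at day 50 and 65.6, 43.4 and 100 CPM at day 65, so the ages overlapped. It was called in none of the 3 comparisons. The log2 fold change at day 65 against day 8 was 0.78 with a 95% interval of 0.03 to 1.52 (edgeR adjusted p = 0.0648), and it passed the threshold without replicate 2 of day 8 (adjusted p = 0.036) or without replicate 2 of day 65 (adjusted p = 0.0206). SGO2, which shields centromeric cohesin, is encoded by Sgo2a, at 19.1, 21.4 and 20.6 CPM at day 8, 19.6, 18.4 and 20.9 CPM at day 50 and 17.2, 23.9 and 21 CPM at day 65. The 95% interval of its log2 fold change was -0.39 to 0.29 at day 50 against day 8 and -0.31 to 0.37 at day 65 against day 8. With the trend of counts with gene length and GC content removed, however, Sgo2a was called higher at day 65 (log2 fold change 0.99 against day 8, edgeR adjusted p = 0.000101). About 35.0% of its exon bases overlap Kctd18 on the opposite strand.

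**Figure D3:**
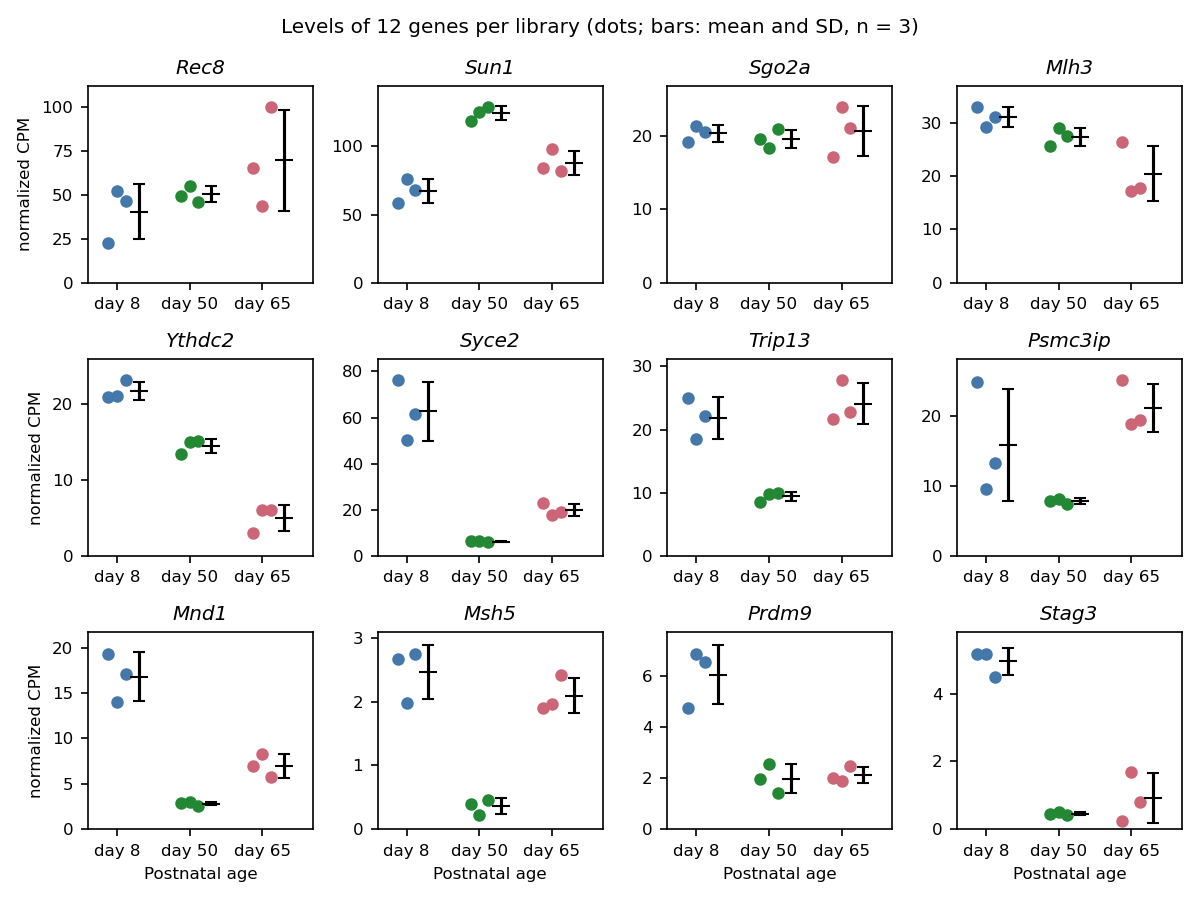
Normalized CPM of 12 genes in each library at day 8, day 50 and day 65 (dots), with the mean and SD of 3 libraries (bars). Rec8 and Sgo2a overlap between ages, Sun1 peaks at day 50, and Syce2, Trip13, Psmc3ip, Mnd1 and Msh5 are lowest at day 50.

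HORMAD1 and HORMAD2 mark unsynapsed axes, and TRIP13 removes them. Both HORMA genes were low already at day 8, at 12, 16 and 16 counts for Hormad1 and 24, 14 and 14 counts for Hormad2. At day 50, Hormad1 had 3, 0 and 0 counts and Hormad2 4, 1 and 0. At day 65, Hormad1 had none and Hormad2 0, 2 and 6. Both were called lower at day 50 and at day 65 than at day 8, but the call for Hormad2 at day 50 was lost without replicate 2 (edgeR adjusted p = 0.0679) or replicate 3 (adjusted p = 0.0607) of day 50. The Hormad2 call at day 65 was lost in 4 of the 16 other settings: without replicate 1 of day 8 (edgeR adjusted p = 0.0707), replicate 1 (0.0624) or replicate 2 (0.071) of day 65, and with the replicate block (0.0522). Trip13 had 25.0, 18.4 and 22.2 CPM at day 8, 8.58, 9.81 and 9.94 CPM at day 50 and 21.7, 27.8 and 22.8 CPM at day 65. It fell at day 50 against day 8 (log2 fold change -1.21, SE 0.17, edgeR adjusted p = 0.000338) and rose at day 65 against day 50 (1.35, SE 0.17, adjusted p = 0.00016). Between day 65 and day 8 its libraries overlapped (log2 fold change 0.14, 95% interval -0.23 to 0.51). Of the 16 other settings, 1 called it higher, removal of the length and GC trend (0.48, edgeR adjusted p = 0.00884), and scaling by library size alone turned its sign (-0.13).

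Of the 5 genes of break formation, 3 were lower at both later ages than at day 8 and 2 were not tested. SPO11 cuts the DNA with MEI1, MEI4 and REC114 as partners. Spo11 had 1, 1 and 3 counts at day 8, 0, 3 and 0 at day 50 and 0, 0 and 1 at day 65, and Mei4 had 14 counts in all at day 8 and 1 at each later age. Neither was tested. Mei1 had 85, 64 and 42 counts at day 8, none at day 50 and 1 at day 65, so its day 50 level was at least 75.8-fold lower than at day 8. Rec114 had 104, 99 and 92 counts at day 8, 0, 3 and 0 at day 50 and 0, 2 and 4 at day 65. Its exons overlap Nptn on the opposite strand over 26.9% of their bases. PRDM9, the histone methyltransferase that designates hotspots, kept over 20 counts in every library: Prdm9 had 4.75, 6.87 and 6.53 CPM at day 8, 1.94, 2.56 and 1.43 CPM at day 50 and 1.99, 1.90 and 2.47 CPM at day 65. It fell at day 50 against day 8 (log2 fold change -1.61, SE 0.31, edgeR adjusted p = 0.00216).

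In strand exchange the recombinase DMC1 acts with the PSMC3IP-MND1 pair, also known as HOP2-MND1. Dmc1 had 25, 35 and 22 counts at day 8, 3, 2 and 9 at day 50 and 6, 12 and 13 at day 65. It fell at day 50 against day 8 (log2 fold change -2.73, SE 0.54, edgeR adjusted p = 0.00257), and by more without replicate 3 of day 50, which holds 9 of its counts at that age (-3.47). Its call at day 65 against day 8 (edgeR adjusted p = 0.0395) was lost in 11 of the 16 other settings tried. Both partners of DMC1 kept a higher level. Mnd1 had 19.4, 14 and 17 CPM at day 8, 2.86, 2.95 and 2.6 CPM at day 50 and 6.97, 8.31 and 5.69 CPM at day 65, with no overlap between ages. It fell at day 50 against day 8 (log2 fold change -2.58, SE 0.23, edgeR adjusted p = 1.78e-05), rose at day 65 against day 50 (1.31, SE 0.22, adjusted p = 0.000822) and stayed below day 8 at day 65 (-1.26, SE 0.22, adjusted p = 0.000539).

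Psmc3ip had 24.8, 9.54 and 13.2 CPM at day 8, 7.89, 8.19 and 7.39 CPM at day 50 and 25.1, 18.8 and 19.5 CPM at day 65. The highest day 8 value belongs to replicate 1, the library with the day 65-like share of ribosomal protein genes. At day 50 against day 8 the log2 fold change was -1.01 (SE 0.31, edgeR adjusted p = 0.023). That call was lost without replicate 1 of day 8 (-0.54, edgeR adjusted p = 0.0601) and without any 1 of the day 50 libraries (adjusted p = 0.0725 to 0.0931). The rise at day 65 against day 50 (1.43, SE 0.31, edgeR adjusted p = 0.00293) passed in all 16 other settings. Against day 8, the day 65 value was not called (0.42, 95% interval -0.25 to 1.08), but without replicate 1 of day 8 it was called higher (0.89, edgeR adjusted p = 0.00372). Exons of Mlx on the opposite strand overlap 21.2% of its exon bases. Of the MEIOB-SPATA22 pair, which coats single-stranded DNA, Meiob had 16 counts in all at day 8, 3 at day 50 and 2 at day 65. Spata22, whose exons overlap the same-strand gene Gm49340 over 80.5% of their bases and whose counts are therefore uncertain, had 22, 3 and 4 counts in all. Neither was tested.

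Of the 7 crossover genes, 6 were lower at day 50 than at day 8 and Mlh3 was not called. The pair MSH4-MSH5 stabilizes recombination intermediates. Msh4 had 54, 69 and 64 counts at day 8, 1, 2 and 3 at day 50 and 0, 0 and 3 at day 65. Msh5 had 36, 34 and 49 counts at day 8, 7, 4 and 9 at day 50 and 23, 30 and 42 at day 65. Msh5 fell at day 50 against day 8 (log2 fold change -2.74, SE 0.39, edgeR adjusted p = 0.000384) and rose at day 65 against day 50 (2.51, SE 0.40, adjusted p = 0.000527), the largest rise called among the 39 genes. Its day 65 and day 8 libraries overlapped (log2 fold change -0.23, SE 0.35, edgeR adjusted p = 0.582).

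TEX11 is an X-linked partner of the crossover machinery. Tex11 had 13.4, 11.5 and 12.4 CPM at day 8, 1, 0 and 0 counts at day 50 and 0, 0 and 1 at day 65. From the single count at day 50, the level at day 8 was 681 times that at day 50, with an exact binomial 95% interval of 122 to 26931. The test called it lower at both later ages (edgeR adjusted p = 3.91e-06 at day 50 and 3.07e-06 at day 65). The ligase genes Rnf212 and Ccnb1ip1 had 66 and 103 counts in all at day 8 and none at day 50, which puts their day 50 levels at least 25.1-fold and 38.2-fold lower. At day 65, Rnf212 had 4 counts, all in replicate 3, and Ccnb1ip1 none. The helicase gene Hfm1 had 17, 36 and 52 counts at day 8, 2, 5 and 1 at day 50 and 0, 6 and 0 at day 65.

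MLH3, an endonuclease that resolves crossovers, kept a measurable level at all ages. Mlh3 had 32.9, 29.3 and 31.1 CPM at day 8, 25.6, 29 and 27.5 CPM at day 50 and 26.4, 17.3 and 17.7 CPM at day 65. It was not called at day 50 against day 8 (log2 fold change -0.18, 95% interval -0.56 to 0.20) and fell by 0.61 on the log2 scale at day 65 against day 8 (SE 0.17, edgeR adjusted p = 0.011). The direction of that fall turned with the length and GC trend removed (0.23, edgeR adjusted p = 0.38). Beside this, the effective length that RSEM gave to the gene was 1978 to 2367 bases at day 65, against 3857 to 4596 bases at day 8.

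Entry into meiosis and its RNA control are the tasks of STRA8, MEIOC and YTHDC2. Stra8 was at 0 in every library except replicate 1 of day 65, which had 4 counts. Meioc had 13 counts in all at day 8, 7 at day 50 and 5 at day 65. Ythdc2, an RNA helicase that binds methylated RNA, was the member of the group with a measurable level: 20.9, 21.1 and 23.1 CPM at day 8, 13.4, 15.0 and 15.1 CPM at day 50 and 2.99, 6.02 and 5.98 CPM at day 65. The 3 ages did not overlap. At day 50 against day 8 the log2 fold change was -0.58 (SE 0.23, edgeR adjusted p = 0.0648), and 4 of the 16 other settings called it. It fell at day 65 against day 50 (-1.52, SE 0.24, edgeR adjusted p = 0.000547) and against day 8 (-2.11, SE 0.24, adjusted p = 4.76e-05). With the length and GC trend removed those values were -0.61 (edgeR adjusted p = 0.023) and -1.07 (adjusted p = 0.000666).

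Telomeres are tethered by TERB1, TERB2 and MAJIN to the SUN1 bridge of the nuclear envelope. Terb1 had 85, 153 and 186 counts at day 8, 0, 4 and 6 at day 50 and 0, 0 and 7 at day 65, and was called lower at both later ages. Terb2 had 37 counts in all at day 8 and none later, and Majin had 15 at day 8, 11 at day 50 and 18 at day 65. Neither of these was tested. Sun1 had 58.5, 75.9 and 67.9 CPM at day 8, 119, 125 and 129 CPM at day 50 and 84.1, 98.2 and 82.0 CPM at day 65. It rose at day 50 against day 8 (log2 fold change 0.88, SE 0.13, edgeR adjusted p = 0.000548), in 3 of 3 libraries and in all 16 other settings. It fell by 0.50 on the log2 scale at day 65 against day 50 (SE 0.13, edgeR adjusted p = 0.00966), a call lost with the length and GC trend removed (-0.09, adjusted p = 0.549). Against day 8, the day 65 level was higher by 0.39 (SE 0.13, edgeR adjusted p = 0.0278), and 5 of the 16 other settings did not call it, scaling by library size alone (0.09, adjusted p = 0.693) among them. In TPM the direction was the opposite, with a mean of 24.7 TPM at day 65 and 33.3 TPM at day 8, and the libraries overlapped.

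**Figure D4:**
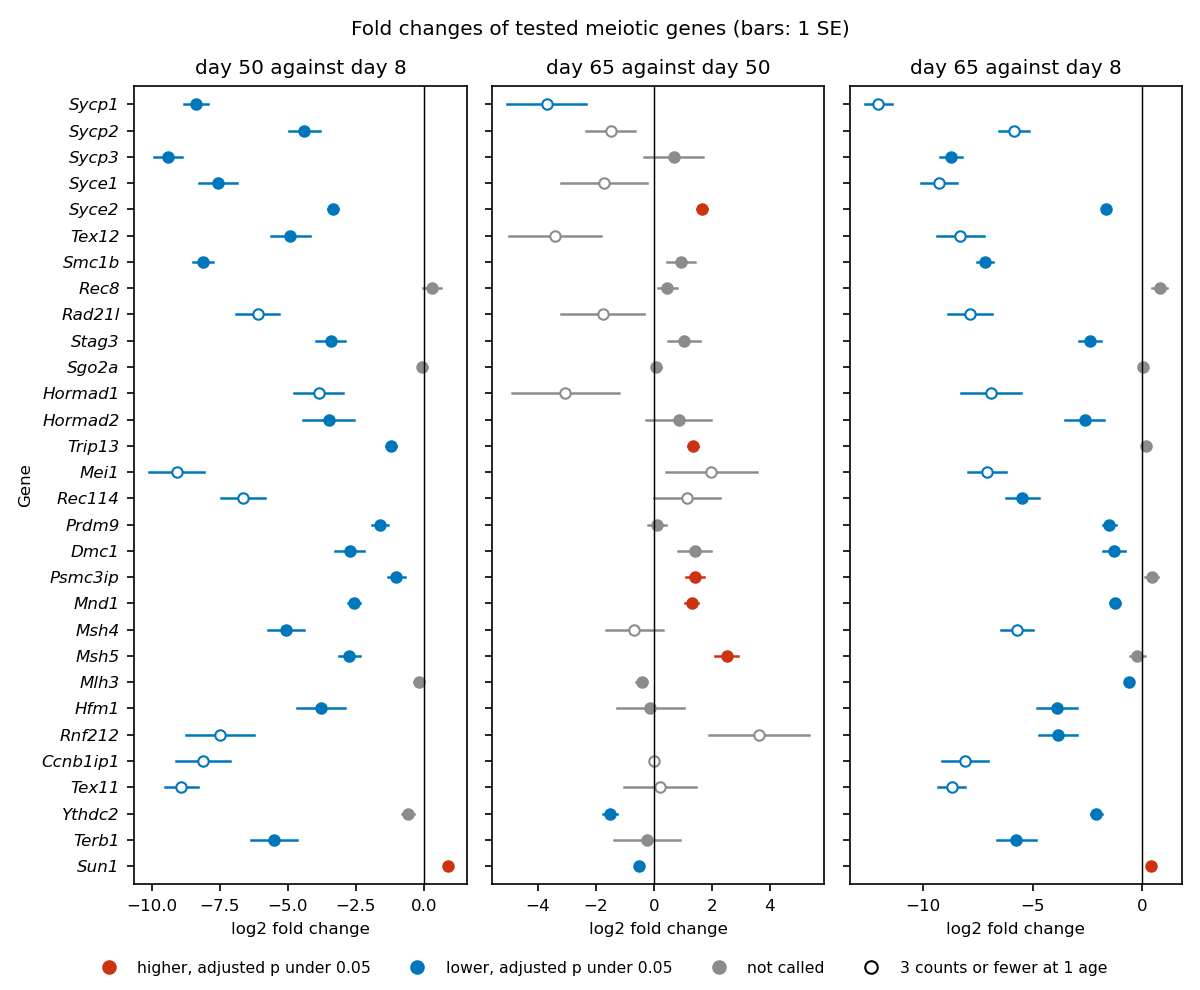
Log2 fold changes of the 30 tested genes (dots, with bars of 1 SE) for day 50 against day 8, day 65 against day 50 and day 65 against day 8, coloured by call at an edgeR adjusted p under 0.05. Open dots mark genes with 3 counts or fewer at 1 of the ages, whose fitted values depend on the prior count, and the dots of the middle panel lie on both sides of 0. Where a gene has few counts at 1 age, its bar can be shorter than the counting error.

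The next comparison asked how the genes changed between the adult ages. At day 65 against day 50, 5 of the 39 genes were higher (Syce2, Trip13, Psmc3ip, Mnd1 and Msh5) and 3 were lower (Sycp1, Ythdc2 and Sun1), with 22 tested and not called. With the length and GC trend removed, 8 were higher, Smc1b, Sgo2a and Dmc1 in addition, and 1 was lower, Ythdc2. Of all genes tested, 55.9% were called at this step, 27.5% as higher and 28.4% as lower. The count of 8 among 39 cannot be ranked against that share, because 9 of the 39 were not tested. In the fit of only these 2 ages, moreover, 12 of the 30 tested genes passed the filter on low counts. The rest entered through their day 8 counts and had too few counts at these ages to pass. The median log2 fold change of all genes at this step was -0.31 with scaling by library size alone and -0.06 with TMM factors, and 35.5% and 49.2% of all calls were higher under these scalings. The median log2 fold change of the 30 tested genes was 0.16. The call for Sycp1 (log2 fold change -3.69, edgeR adjusted p = 0.0462) compares 0 with 5 counts and was lost in 11 of 15 other settings (adjusted p up to 0.127), and its libraries overlapped.

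All 5 genes that rose passed in each of the 16 other settings, with the smallest rises after removal of the length and GC trend or scaling by library size alone; for Syce2 the lowest log2 fold change was 0.76. Proliferation genes moved with them: 7 of the 10 listed, such as Mki67 and Cdk1, were higher at day 65, and their summed level was 1382 to 1451 CPM at day 65, against 762 to 884 CPM at day 50. Stromal markers moved in the same direction, 3 of the 5 being higher, whereas oocyte markers had 1 of 16 higher (Gdf9, 42.7 CPM at day 65 and 30.1 CPM at day 50) and 6 lower. Of the 10 granulosa cell markers 6 were lower and 1 higher, with a mean sum of 7428 CPM at day 65 and 14380 CPM at day 50. Theca and steroidogenesis markers had 5 of 6 lower and 0 higher, with mean sums of 1115 CPM and 3405 CPM. The ribosomal protein share also differed, at 9.06% to 11.9% in day 65 libraries and 2.82% to 3.33% in day 50 libraries. The part of these in the 5 rises was not tested.

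Over the whole interval, day 65 against day 8, 24 of the 39 genes were lower and 1, Sun1, was higher, whereas 62.3% of all genes tested were called (32.6% lower, 29.7% higher). Of all calls in this comparison 47.6% were higher, 34.8% with scaling by library size alone and 59.1% with the length and GC trend removed. The 5 tested genes not called were Rec8, Sgo2a, Trip13, Psmc3ip and Msh5. Of the 39, 22 were lower than at day 8 at both later ages, 3 (Trip13, Psmc3ip and Msh5) at day 50 alone and 2 (Mlh3 and Ythdc2) at day 65 alone by the threshold; these comparisons share the day 8 libraries. The median log2 fold change was -3.88, and -3.81 with the 5 genes at 0 set to their bound. Genes that passed the filter through day 8 alone limit this median as they do at day 50. Replicate 3 of day 65 had counts for 28 of the genes, against 19 and 22 in replicates 1 and 2, and also the highest oocyte marker sum, 150 CPM against 56.7 CPM and 58.3 CPM. It held 7 of 7 Terb1 counts and 3 of 3 Msh4 counts at that age. Replicate 2, however, held 6 of 6 Hfm1 counts and 7 of 8 Sycp3 counts, and replicate 1 held 4 of 4 Stra8 counts. Replicate 3 was also the deepest library of day 65, at 18865441 expected counts against 15007094 and 16636928.

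Promoters bear on genes that move together, so the windows of 250 bases before to 50 bases after the annotated start were searched on both strands for 3 motifs: CACGTG (the E-box of MYC, MAX and MGA), TCCCGC (part of the E2F site) and CNCCTCAG (the motif linked to STRA8 and MEIOSIN). RefSeq (GRCm38.p6) gave 40 windows for 33 of the 39 genes. Majin, Ythdc2, Tex11, Terb2, Meiob and Spo11 had no entry. The letters TCCCGC occurred in 26 of the 40 windows (65.0%), against 20% of all 32851 windows of the same length. CACGTG occurred in 9 (22.5%), against 7.15% of all windows, and CNCCTCAG in 8 (20%), against 7.94%. The windows of these genes are richer in CpG than most, with a median observed-to-expected ratio of 0.707 against 0.384 for all windows. Among all 9764 windows with at least 18 CpG, the median count of the 40, 47.7% held TCCCGC, 11.6% CACGTG and 9.69% CNCCTCAG. A match shows only that the letters are there.

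The windows printed here are those of 4 genes that fell steeply or in part at day 50 and of the gene that rose, from RefSeq on GRCm38.p6, each on the strand of its gene and with motif matches in capitals. Sycp1 (minus strand) lies at chr3:102936051-102936350, Sycp3 (plus) at chr10:88459337-88459636, Smc1b (minus) at chr15:85131908-85132207, the downstream of 2 Syce2 windows (plus) at chr8:84872008-84872307 and the upstream of 2 Sun1 windows (plus) at chr5:139200387-139200686.
Sycp1: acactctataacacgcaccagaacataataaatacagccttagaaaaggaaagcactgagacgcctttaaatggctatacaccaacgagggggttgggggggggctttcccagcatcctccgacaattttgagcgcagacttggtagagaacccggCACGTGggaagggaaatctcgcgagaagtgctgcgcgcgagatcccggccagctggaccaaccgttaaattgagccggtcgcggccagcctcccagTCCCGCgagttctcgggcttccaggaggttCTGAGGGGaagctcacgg
Sycp3: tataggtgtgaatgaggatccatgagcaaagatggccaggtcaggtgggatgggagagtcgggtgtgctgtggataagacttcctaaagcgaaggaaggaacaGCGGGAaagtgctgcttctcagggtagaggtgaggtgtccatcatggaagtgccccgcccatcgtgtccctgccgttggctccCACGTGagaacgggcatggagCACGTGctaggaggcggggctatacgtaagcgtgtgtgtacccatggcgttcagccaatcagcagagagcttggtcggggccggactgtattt
Smc1b: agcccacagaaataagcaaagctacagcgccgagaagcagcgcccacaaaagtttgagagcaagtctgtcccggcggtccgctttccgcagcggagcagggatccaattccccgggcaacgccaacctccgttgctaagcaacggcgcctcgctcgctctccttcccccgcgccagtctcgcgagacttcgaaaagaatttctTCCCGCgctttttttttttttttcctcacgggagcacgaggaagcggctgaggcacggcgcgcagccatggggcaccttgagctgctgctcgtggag
Syce2: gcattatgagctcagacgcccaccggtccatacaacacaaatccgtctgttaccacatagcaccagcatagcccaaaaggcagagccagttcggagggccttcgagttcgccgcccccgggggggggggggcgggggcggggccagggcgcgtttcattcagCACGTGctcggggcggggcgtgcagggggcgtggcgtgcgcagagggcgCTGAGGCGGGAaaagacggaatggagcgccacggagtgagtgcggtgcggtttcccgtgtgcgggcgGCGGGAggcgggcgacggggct
Sun1: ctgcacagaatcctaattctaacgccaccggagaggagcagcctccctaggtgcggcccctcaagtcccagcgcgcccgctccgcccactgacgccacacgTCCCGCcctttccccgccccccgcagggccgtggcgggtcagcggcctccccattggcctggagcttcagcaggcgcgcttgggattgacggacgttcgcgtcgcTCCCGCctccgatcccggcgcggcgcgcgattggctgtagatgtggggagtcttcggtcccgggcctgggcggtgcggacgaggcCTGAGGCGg
Sycp3 has 2 copies of CACGTG, at positions -64 and -43 from the start, and TCCCGC at -147. Sycp1 has CACGTG at -94, TCCCGC at 3 and CNCCTCAG at 33. Smc1b has TCCCGC alone, at -47. In Syce2 a CNCCTCAG match at -39 overlaps a TCCCGC match at -34, another TCCCGC match lies at 29, and CACGTG lies at -88. The Sun1 window, of the gene that rose, also holds TCCCGC at -149 and -44 and CNCCTCAG at 42, so that neither of these motifs was limited to genes that fell. Of the windows not printed, the other of Syce2 holds TCCCGC alone, at -115, and the other of Sun1 holds none of the 3 motifs. The 9 windows with CACGTG belong to 8 genes, because both windows of Hormad1 nearly coincide and hold the same sites.

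A further 38 genes of meiosis, none of them among the 39, were followed in the same fit, and 34 were tested. At day 50 against day 8, 26 were lower and 1 higher, beside 21.4% and 19.5% of all genes tested. Among those with the smallest p were Mael, a piRNA pathway gene (0.396 CPM at day 50 and 91.7 CPM at day 8), Zcwpw1, a reader of PRDM9 marks (2.34 CPM and 34.8 CPM), and the germ cell RNA-binding gene Dazl (3.66 CPM and 41.8 CPM). The gene that was higher, Sun2, encodes a SUN protein related to SUN1 (log2 fold change 0.61, SE 0.17, edgeR adjusted p = 0.0158). It was not called with scaling by library size alone (adjusted p = 0.0607).

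Between day 65 and day 50, 11 of the 38 were higher and 5 lower, beside 27.5% and 28.4% of all genes tested, so that the share of higher calls was near that of all genes. The count of higher calls was 6 with scaling by library size alone and 7 without replicate 3 of day 50, and that of lower calls was 2 in the fit of only these ages. The strongest rise was that of 4930447C04Rik (Six6os1), a central element gene of the synaptonemal complex, with 6.72, 5.10 and 8.05 CPM in day 65 libraries, against 0.172, 0.0557 and 0.204 CPM in day 50 libraries (log2 fold change 5.44, SE 0.44, edgeR adjusted p = 2.38e-05). Zcwpw1 (13.2 CPM at day 65, 2.34 CPM at day 50) and Dazl (15.2 CPM and 3.66 CPM) rose too. The kinase gene Atm (3.67 CPM at day 65, 17.1 CPM at day 50), Sycp2l (2 counts in all against 48), Shoc1 (0 counts in all against 10) and Sun2 (72.4 CPM and 114 CPM) fell. Compared with day 8, day 65 ovaries had 22 of the 38 lower and 3 higher, beside 32.6% and 29.7% of all genes tested. Those lower were led by Mael, Sycp2l, Hsf2bp and Atm. The 3 higher were Swi5 (log2 fold change 1.40), 4930447C04Rik (1.30) and Mus81 (0.37). The Mus81 call was lost in 11 of the 16 other settings.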

How the data were processed

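RNA-seq of 9 mouse ovary libraries, 3 per age, was analysed from the authors' gene tables, 1 per library. Per the file headers, the authors estimated an expected count per gene with RSEM, together with TPM and FPKM values that they scaled to effective length. Reads were placed on GRCm38 (mm10), per the submitters' processing notes. Aligner, versions and strand setting were not stated, and FPKM was not used.

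Expected counts, rounded to integers, were tested with edgeR 4.0.16 in R 4.3.3 (filterByExpr, TMM factors, glmQLFit with robust estimation, glmQLFTest, two-sided). One fit covered all 9 libraries, with age as its factor. Of the genes, 17747 were tested, p-values were adjusted after Benjamini and Hochberg over all of them, and a gene was called at an adjusted p under 0.05. The test was checked on simulated data. The simulated folds were smaller than the steepest falls seen here, so the check does not cover those. SE is the log2 fold change divided by the square root of F. For the bounds only, a count of 0 in all libraries of an age was set to a floor of 3 counts over the group (0.0619 CPM at day 8, 0.0545 CPM at day 50, 0.0671 CPM at day 65). The fitted fold changes and their tests used the counts without a floor. The libraries have no molecular identifiers; floors and binomial intervals cover counting error only.

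The 39 genes, the other lists and the tests were chosen with earlier results of these data known. Every one of the 39 genes is named. Full statistics are given for those called with 10 CPM or more at the higher age, for those called higher, and for all called between day 65 and day 50. Where a gene had few or no counts at an age, as Sycp1 and Tex11 did, they can be partial, with counts, bounds or binomial intervals instead. In addition, a few others were chosen after their values were seen. Of the other meiotic genes, the 4 with the smallest p in each direction are named, except 1 that is not reported here. The alternatives were DESeq2 1.42.0 and its size factors, library size alone, no filter, only the 2 ages compared, a replicate block, removal of the length and GC trend, and leaving out each library. Exon overlaps come from GENCODE M21. Whether reads of overlapping genes were divided correctly could not be checked without the strand setting. The deposited lengths were used only as printed.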

Additional observations from a re-analysis of the deposited data

How the results depend on the processing

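At day 50 against day 8, the 30 tested genes kept their direction in all 16 other settings except Sgo2a, whose value is near 0. The count of genes called lower was 24 to 27 when a library was left out. Scaling by library size alone left 0 of the other 38 meiotic genes higher. Between day 65 and day 50, removal of the length and GC trend gave 8 of the 39 genes higher and 1 lower. Of the other 38, scaling by library size alone gave 6 higher, the fit of only the 2 ages gave 2 lower, and leaving out a library gave 7 to 12 higher, the 7 without replicate 3 of day 50. For day 65 against day 8, no gene of the 39 was higher (0 calls) with DESeq2 size factors, with library size alone or in the fit of only the 2 ages, and 3 were with the trend removed, which also gave 6 of the other 38 as higher; leaving out a library gave 1 to 2. The trend removal turned the values of Mlh3 (0.23) and Sgo1 (0.50) at this step. The cause of these shifts was not tested.

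The log2 ratio of the summed TPM was -1.69 at day 50 against day 8, and -1.25 in CPM or -1.44 without the 5 genes that overlap others over 20% or more of their exon bases. At day 65 against day 50 it was -0.16 in TPM and 0.089 in CPM, and at day 65 against day 8 it was -1.85 in TPM and -1.16 in CPM.

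Replicate numbers did not pair the libraries: same-numbered libraries of different ages deviated from their age means with correlations of -0.04 to 0.05, and not every library correlated best with its own number. With the replicate block, 25 of the 39 genes were lower at day 50 against day 8, 5 higher and 2 lower at day 65 against day 50, and 22 lower at day 65 against day 8.

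Counts limit the later ages: 14 of the 39 genes had 3 counts or fewer over the group at day 50 and 14 at day 65.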
